A study of Mus musculus with 6 samples.

Results

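The cytosolic ribosomal protein genes encode the protein part of the ribosome outside mitochondria. They were taken from the deposited expression table by symbol: Rpl or Rps followed by a number, and Rplp0, Rplp1, Rplp2 and Rpsa, without the S6 kinases and pseudogenes. The rule found 89 of 24421 genes, of which 54 are named for the large subunit and 34 for the small one. The remaining gene, Rps19bp1, encodes a protein that binds Rps19 and is not itself a ribosomal protein. RNA had been sequenced from F4/80+ CD11b+ cells sorted from visceral white adipose tissue of male C57BL/6N mice, 12 weeks old according to the labels and all fed a diet with 60 kcal% fat. For 30 days the animals received an injection under the skin every 6 days. The EtOH group (2 libraries) received the ethanol vehicle, the E2 group (2 libraries) estradiol at 10 mg/kg and the 4-OHE1 group (2 libraries) 4-hydroxyestrone at 10 mg/kg. Whether a group's libraries came from different animals is not in the labels, so the p-values describe the spread among the 6 libraries and this spread may be technical.

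A cytosolic ribosome joins a small subunit, which reads the mRNA, and a large subunit, which forms the peptide bond. Each structural protein is present in about a single copy per ribosome, except for the paired acidic proteins of the stalk, and its mRNA is among the most abundant in the cell. Ribosomal protein mRNAs begin with a run of pyrimidines, the 5′ terminal oligopyrimidine tract, through which mTORC1 signalling controls their translation. Macrophages need ribosomes to produce cytokines and secreted enzymes.

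The libraries differed in ways that touch every level below. They held 4515276 to 35293924 reads in exons, the most in EtOH, and the share of tags in exons was 84.6% and 85.1% in EtOH, 75.8% and 72.4% in E2, then 62.5% and 60.8% in 4-OHE1. Malat1, a nuclear RNA, went the other way, with 200.1 and 197.6 RPKM in EtOH, 359 and 506 in E2, with 853 and 985 in 4-OHE1. RPKM is the number of exon reads scaled by exon length and by all tags of the library, those outside exons included. The authors' scaling therefore put the median log2 change of the 10950 genes tested at -0.18 in E2 against EtOH and at -0.44 in 4-OHE1 against EtOH. Relative to exon reads these medians were 0.00 and -0.04. A gene is said to have risen or fallen only where limma passed it in the same direction under both scalings at an adjusted p under 0.05. The authors' scaling lowers the changes, so it adds no separate support to a fall. Over all genes tested 238, 1521 and 782 fell in E2 and 4-OHE1 against EtOH and in 4-OHE1 against E2. Exon reads alone gave the same counts. Rises numbered 192, 629 and 274, beside 193, 629 and 274 with the authors' scaling alone. Unless stated otherwise, log2 changes are relative to exon reads and on the log2(RPKM + 1) scale, and where 1 adjusted p stands for both scalings it is the higher. Exon share and treatment moved together over all 6 libraries and cannot be told apart. The summed level of 10 macrophage markers ranged from 8973 to 9111 RPKM in EtOH, from 6296 to 6569 in E2 and from 4662 to 4773 in 4-OHE1. Lyz2 makes up most of this sum, at 5725 and 5806 RPKM in EtOH and 2381 and 2350 in 4-OHE1. Of the 10, 8 had a lower mean in 4-OHE1 than in EtOH and 2 a higher one: Mertk (24.7 and 24.3 RPKM in EtOH, 43.4 and 39.4 in 4-OHE1) and Mrc1 (453 and 450.5, 468.7 and 478). The sum of 7 adipocyte markers ranged from 427 to 437, from 698 to 703 and from 836 to 841. Fabp4, which macrophages also express, made up most of this sum. Of the 7, 6 had a higher mean in 4-OHE1 than in EtOH and 1, Lep, a lower one. Cfd stood at 4.39 and 4.78 RPKM in EtOH and at 49.0 and 45.5 in 4-OHE1. Car3 stood at 30.5 and 33.4 RPKM in EtOH and at 137 and 123 in 4-OHE1. Adipoq stood at 5.05 and 4.77 RPKM in EtOH and at 13.3 and 11.4 in 4-OHE1. Sums of 4 adipose stroma markers were 194 to 197 RPKM in EtOH, 148 to 153 in E2 and 109 to 112 in 4-OHE1, and those of 4 erythroid markers 82.3 to 90.8, 67.8 to 76.6 and 60.7 to 71.6. Over all 6 libraries the sum of 3 endothelial markers lay between 12.6 and 18.4 RPKM, that of 4 B-cell markers, most of it Cd79b, between 7.95 and 11.9, that of 4 T-cell markers between 0.495 and 2.53 and that of 5 neutrophil markers between 1.03 and 3.93, with Ly6g listed at 0 in all. All these marker values are RPKM with the authors' scaling. To express them relative to exon reads, RPKM is multiplied by 1.00 in both EtOH libraries, 1.12 and 1.17 in E2, and 1.36 and 1.39 in 4-OHE1. On that scaling the falls in 4-OHE1 are smaller or absent and the rises larger. The part of cell makeup in the results was not tested. In these bulk samples fewer cells of a type and less RNA per cell cannot be told apart.

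The tract at the annotated transcription start is shown for 9 genes on which the results below turn. Each window is 30 bases of RefSeq sequence (GRCm38.p6), 15 before the start and 15 from it, and capitals mark runs of at least 5 pyrimidines. Base 16 is the annotated start. The first 4 genes stood higher than the other ribosomal protein genes in 4-OHE1 against EtOH, and the last 5 were lower in at least 1 test involving 4-OHE1.
Rps27, chr3:90213634-90213663, minus strand: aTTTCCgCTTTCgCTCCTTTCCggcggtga
Rpl35a, chr16:33056467-33056496, plus strand: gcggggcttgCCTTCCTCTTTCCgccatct
Rps24, chr14:24490663-24490692, plus strand: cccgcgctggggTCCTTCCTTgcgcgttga
Rpl31, chr1:39367836-39367865, plus strand: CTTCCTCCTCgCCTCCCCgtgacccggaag
Rps27l, chr9:66946071-66946100, plus strand: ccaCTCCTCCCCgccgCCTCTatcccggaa
Rps19bp1, chr15:80264292-80264321, minus strand: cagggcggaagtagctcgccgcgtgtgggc
Rpl36al, chr12:69184053-69184082, minus strand: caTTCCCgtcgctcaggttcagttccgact
Rpl4, chr9:64173372-64173401, plus strand: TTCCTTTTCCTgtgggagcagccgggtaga
Rpl34, chr3:130730323-130730352, minus strand: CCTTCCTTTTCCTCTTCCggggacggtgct
In the upper 4 a run covers the start, and so it does in Rpl34. Among all 15 genes that stood higher, Rps27rt left out, 9 had a start that could be searched, 5 of them with such a run. Rpl23, Rpl26, Rpl37a and Rps19 also stood higher, have no run over the start and are not shown. In Rps27l runs lie on both sides of the start, in Rpl4 and Rpl36al a run ends upstream of it, and Rps19bp1 has none in this window.

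Nearly all of these genes were strongly expressed. Of the 89, 85 had a mean of at least 1 RPKM over the 6 libraries and were tested, and the median tested gene stood at 593 and 617 RPKM in EtOH. Rps29, a small zinc-binding protein of the small subunit, was the most abundant, with 2345 and 2662 RPKM in EtOH, 2964 and 2585 in E2, then 2157 and 2174 in 4-OHE1. Rplp1, an acidic protein of the stalk that recruits elongation factors, followed with 2211 and 2283, 2335 and 2186, and 1850 and 1790 RPKM. In EtOH the next were Rps12 (1531 and 1617 RPKM), Rps27 (1269 and 1371), Rps15 (1286 and 1322) and Rpl32 (1220 and 1293). All 6 belong to the structural set of the ribosome, and 4 of them to the small subunit. Rps27rt, a retrotransposed copy of Rps27, stood at 1276 and 1377 RPKM, but its row carries the mm9 coordinates of Rps27 itself (chromosome 3, from 90016589), so both rows count the same reads.

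**Figure D1:**
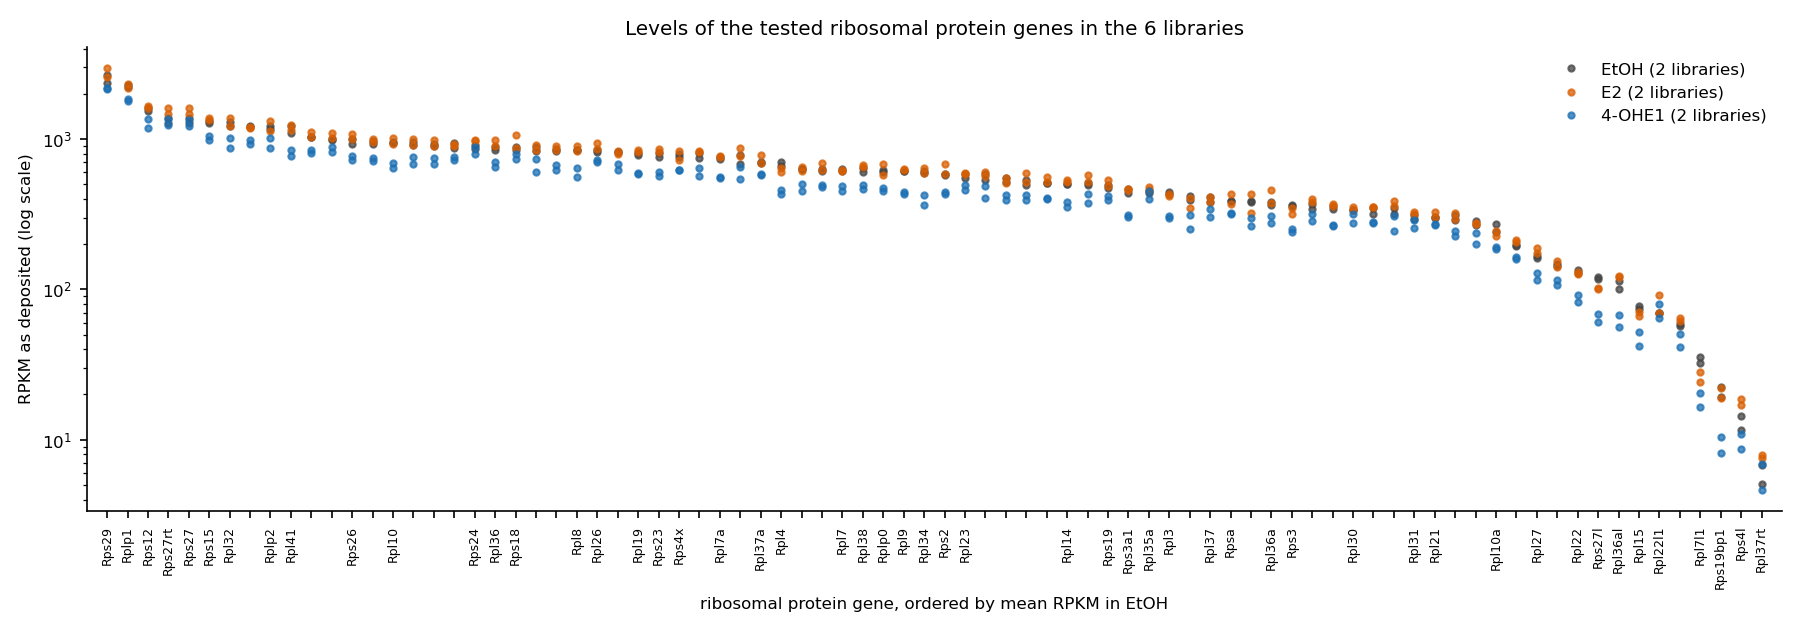
RPKM as deposited (y axis, log scale) of 82 tested ribosomal protein genes (x axis, ordered by their mean in EtOH; those named in the text are labelled), with a dot for each of the 6 libraries, 2 a group. Most genes lie in a narrow band, the gene-like copies at the right lie far below it, and the 4-OHE1 dots lie lowest for most genes under this scaling.

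Among the low members, 3 are copies or paralogs of a stronger gene. Rpl7l1, a paralog of Rpl7, stood at 32.4 and 35.7 RPKM in EtOH. Rps4l, listed under a non-coding accession beside the X-linked Rps4x, stood at 11.5 and 14.3 RPKM, and Rpl37rt, a copy of Rpl37, at 5.06 and 6.75. The untested members were Rpl39l (0 to 0.842 RPKM over the 6 libraries), Rpl32l (0 to 1.44), Rpl3l, the muscle paralog of Rpl3 (0 to 0.095), and Rpl10l, the testis paralog of Rpl10, listed at 0 in all 6. Ribosomal protein genes have many near-identical processed pseudogenes, and how the authors' counting treated reads with several matches is not given in the sources used here, so the levels of Rps4l, Rpl37rt, Rpl32l and other near copies are uncertain.

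Taken as a whole, the set held a larger share of the exon signal in both estrogen groups than in EtOH, which did not hold for all tags. The summed RPKM of 87 members, without Rps27rt and Rps19bp1, was 11.2% and 11.6% of the RPKM of all genes in EtOH, 13.5% and 13.3% in E2, with 13.1% and 12.8% in 4-OHE1. The groups do not overlap, and E2 was the highest. As a share of reads in exons the means were 4.33%, 5.12% and 4.66%, in the same order of groups. As a share of all tags they were 3.67%, 3.80% and 2.87%, so with that denominator 4-OHE1 was the lowest group. There the E2 libraries (3.93% and 3.67%) overlap those of EtOH (3.59% and 3.75%). An exact permutation test of 2 libraries against 2 cannot reach a p under 0.05, and no test was run on these sums. The ratio of large-subunit to small-subunit RPKM, which does not depend on the scaling, was 1.14 and 1.12 in EtOH, 1.10 and 1.11 in E2, then 1.09 and 1.06 in 4-OHE1. These values do not overlap either, with E2 between the other groups. The stalk genes Rplp0, Rplp1 and Rplp2 together made up 7.59% and 7.50% of the set in EtOH, 7.48% and 7.21% in E2, then 7.65% and 7.52% in 4-OHE1. Both E2 libraries lay below all others in this share, and those of EtOH and 4-OHE1 overlap.

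**Figure D2:**
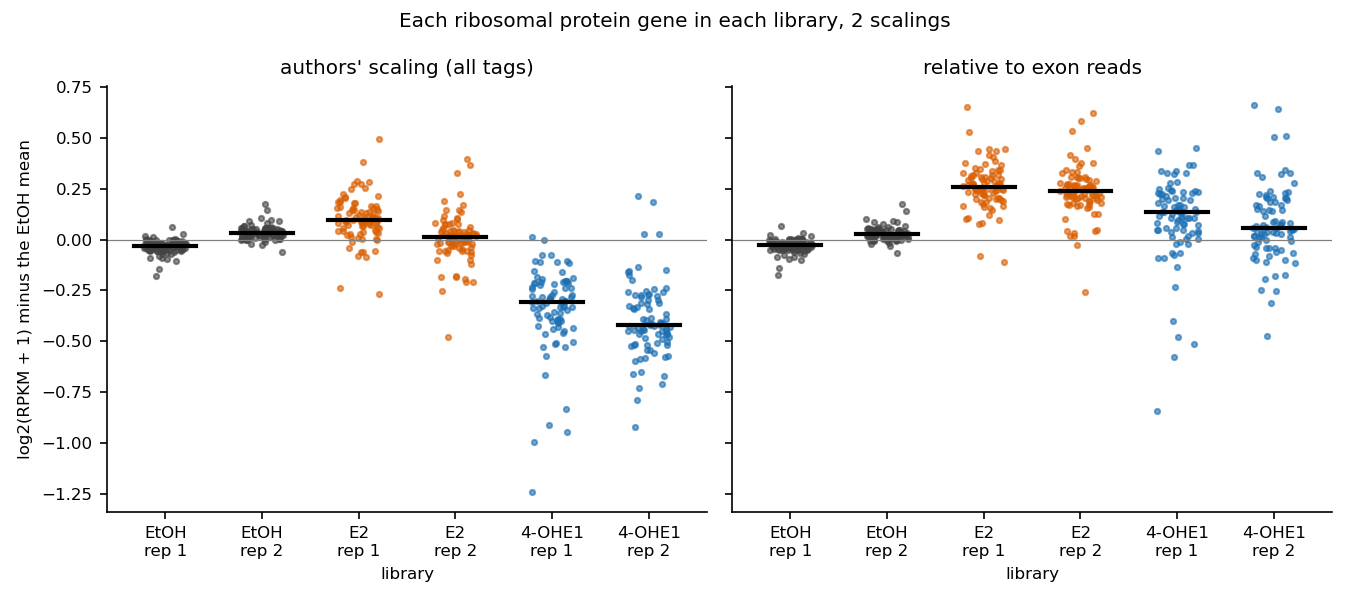
Each dot is a tested ribosomal protein gene in a library, as log2(RPKM + 1) minus the mean of the EtOH libraries (y axis), with the authors' scaling on the left and relative to exon reads on the right; black bars are medians over the 85 genes. E2 lies above EtOH relative to exon reads, whereas 4-OHE1 lies below EtOH with the authors' scaling and slightly above it relative to exon reads.

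The first comparison asked what estradiol did against the vehicle. Relative to exon reads 83 of the 85 genes stood higher in E2, by a median log2 change of 0.24 against 0.00 over all genes tested and -0.02 over the 886 other genes of like level. The shift was shared: the interquartile range of the change was 0.10 over the members and 0.40 over all genes, on the log2 scale. Under the authors' scaling the median was 0.05, with 67 of 85 above 0, against -0.18 for all genes, so the members stood above the bulk of genes under both scalings. Of the 85 genes, 0 rose and 0 fell under both scalings in limma, where the background was 1.75% of all genes higher and 2.17% lower. At an unadjusted p under 0.05 in both scalings 3 stood higher and 0 lower, 3.53% of the members beside 5.03% of all genes higher and 8.52% lower. The authors' scaling alone gave 0 higher and 0 lower, beside 1.76% and 5.44% of all genes. Relative to exon reads alone 31 were higher and 0 lower, beside 3.18% of all genes higher.

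In the count tests on reads recovered from the deposited tables, edgeR called 34 of 84 members higher and 0 lower, beside 4.53% and 3.02% of all genes, and DESeq2 called 59 higher and 0 lower, beside 5.88% and 3.71%. The authors' deposited table of E2 against EtOH lists 23 of the 89 as higher and 0 as lower at an adjusted p under 0.05, beside 4.91% and 5.5% of all its genes, with a median log2 change of 0.22. The call therefore turns on the scaling, whereas the direction of the median was upward in each of these tests. Relative to exon reads both E2 libraries lay above both EtOH libraries for 78 of the 89, beside 29.1% of all genes, and below them for 2, beside 29.8%.

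At the upper end in E2 lay Rps27 and several low copies. Rps27, whose human counterpart is mutated in some families with Diamond-Blackfan anaemia, stood at 1269 and 1371 RPKM in EtOH, 1597 and 1461 in E2, with 1228 and 1346 in 4-OHE1. Its log2 change in E2 was 0.41 (SE 0.07), with an adjusted p of 0.0233 relative to exon reads and 0.139 with the authors' scaling, and Rps27rt, which counts the same reads, also gave 0.41. The largest changes belonged to low copies that did not pass: Rps4l went from 11.5 and 14.3 RPKM to 18.5 and 16.9 (log2 change 0.62, SE 0.16, adjusted p = 0.175) and Rpl37rt from 5.06 and 6.75 to 7.93 and 7.61 (0.53, SE 0.23, adjusted p = 0.374). Both rest on few reads, 123 in each E2 library for Rps4l. Rpl22l1 (log2 change 0.39, adjusted p = 0.485) and Rpl36al (0.38, adjusted p = 0.363) came next, also without passing. At the other end were Rpl7l1 (-0.18), Rps27l (-0.03), Rpl15 (0.06), Rpl4 and Rps3 (both 0.07) and Rpl10a (0.07), and Rpl7l1 and Rps27l were the only ones below 0. When each gene was set against the median ribosomal protein gene of its own library, which removes the scaling, 0 of 85 departed in limma, beside 1.91% of all genes higher and 6.37% lower, and 13 did at an unadjusted p under 0.05. Without either of the 4-OHE1 libraries, which enter only the estimate of the spread, 4 departed.

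The second comparison set 4-hydroxyestrone against the vehicle. Relative to exon reads the members stood slightly higher, with a median log2 change of 0.10 and 67 of 85 above 0, whereas under the authors' scaling the median was -0.36. All genes tested had medians of -0.04 and -0.44 under the same scalings, and the 886 other genes of like level had -0.18 relative to exon reads. In limma 0 of 85 rose and 2 fell, Rps19bp1 and Rps27l, where 5.74% of all genes rose and 13.9% fell, and 35.8% of those of like level fell. The authors' scaling alone gave 69 lower and 0 higher, beside 39.5% of all genes and 683 of the 886 of like level lower. Exon reads alone gave 18 higher and 2 lower, beside 12.8% and 13.9% of all genes. The sign of the members' median thus depends on the scaling, as all genes shift with it, whereas the members' median lay above that of all genes and that of genes of like level (-0.64 with the authors' scaling) under both. In edgeR 12 of 84 were higher and 3 lower, beside 14.0% and 14.9% of all genes, and in DESeq2 20 were higher and 1 lower, beside 12.4% and 11.7%. In the authors' deposited table of 4-OHE1 against EtOH 0 of 89 passed in either direction, beside 5.57% of all its genes higher and 6.79% lower, with a median log2 change of 0.04. At an unadjusted p under 0.05 in both limma scalings 0 stood higher and 5 lower, 5.88% of the members beside 21.1% of all genes lower and 7.46% higher. Relative to exon reads both 4-OHE1 libraries lay above both EtOH libraries for 48 of the 89, beside 32.2% of all genes, and below them for 12, beside 35.2%.

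Rps27l, a paralog of Rps27 known in human cells as a p53 target, fell from 121 and 116 RPKM in EtOH to 61.1 and 68.3 in 4-OHE1, with 100.3 and 102 in E2. Its log2 change was -0.41 (SE 0.09, adjusted p = 0.0208), and both 4-OHE1 libraries lay below all others. Rps19bp1, which encodes the SIRT1 regulator AROS, fell from 19.2 and 22.3 RPKM to 8.16 and 10.5, with 22.2 and 19.0 in E2. Its log2 change was -0.66 (SE 0.17, adjusted p = 0.0312), and both 4-OHE1 libraries lay below all others, whereas EtOH and E2 overlap. It rests on 62 and 64 reads in the 4-OHE1 libraries, and edgeR did not pass it (adjusted p = 0.0566). DESeq2 passed neither Rps27l nor Rps19bp1, and its 1 lower member was a large-subunit gene that limma did not call. The next lowest were Rpl7l1 (32.4 and 35.7 RPKM in EtOH, 16.5 and 20.4 in 4-OHE1, log2 change -0.41, adjusted p = 0.0794) and Rpl36al (-0.33, adjusted p = 0.0881). Rpl15, a large-subunit protein, followed at -0.22 and Rpl34 and Rpl4 at -0.16, and none of these passed. Neither call passed without EtOH replicate 1 or EtOH replicate 2 or with no filter on low levels, where the count was 0 each time. The count was 1 without either E2 library and with only the 4 libraries of the comparison, each time Rps27l, and 5 without 4-OHE1 replicate 2.

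Set against the median ribosomal protein gene of the same library, 16 of the 85 stood higher in 4-OHE1 than in EtOH and 3 lower. These are 18.8% and 3.53% of the members, beside 13.8% and 12.9% of all genes on the same measure. The 66 members that did not pass had a median relative log2 change of 0.07, so a typical member lay above this reference. The upward changes below include that offset, and so do the tests that gave 16 higher and 3 lower. The higher genes included Rps27 (relative log2 change 0.40, adjusted p = 0.0071), which Rps27rt repeats, and Rpl35a (0.37, adjusted p = 0.0033), a large-subunit protein mutated in some human Diamond-Blackfan anaemia. Rpl35a stood at 438 and 449.8 RPKM in EtOH, 480.3 and 457 in E2, then 448 and 399 in 4-OHE1, so under the authors' scaling its 4-OHE1 libraries overlap those of EtOH, while the median member went from 593 and 617 RPKM to 458 and 434. Rps24, another small-subunit protein linked to that anaemia, stood at 859 and 906, 967 and 992, and 881 and 795 RPKM (relative log2 change 0.36, adjusted p = 0.0047). Rpl21, a large-subunit protein, stood at 296 and 304 RPKM in EtOH and 269.8 and 273 in 4-OHE1 (0.30, adjusted p = 0.0105). Then came Rpl31 (0.28), Rpl30 (0.27), Rps18 (0.26), Rps29 (0.23) and Rpl26 (0.22). Rps19, Rpl37a, Rpl23 and Rplp1 also passed, at smaller changes, from 0.19 down to 0.14. Without Rps27rt the higher genes number 15. By subunit 9 of the 16 are large-subunit and 7 small-subunit genes.

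**Figure D3:**
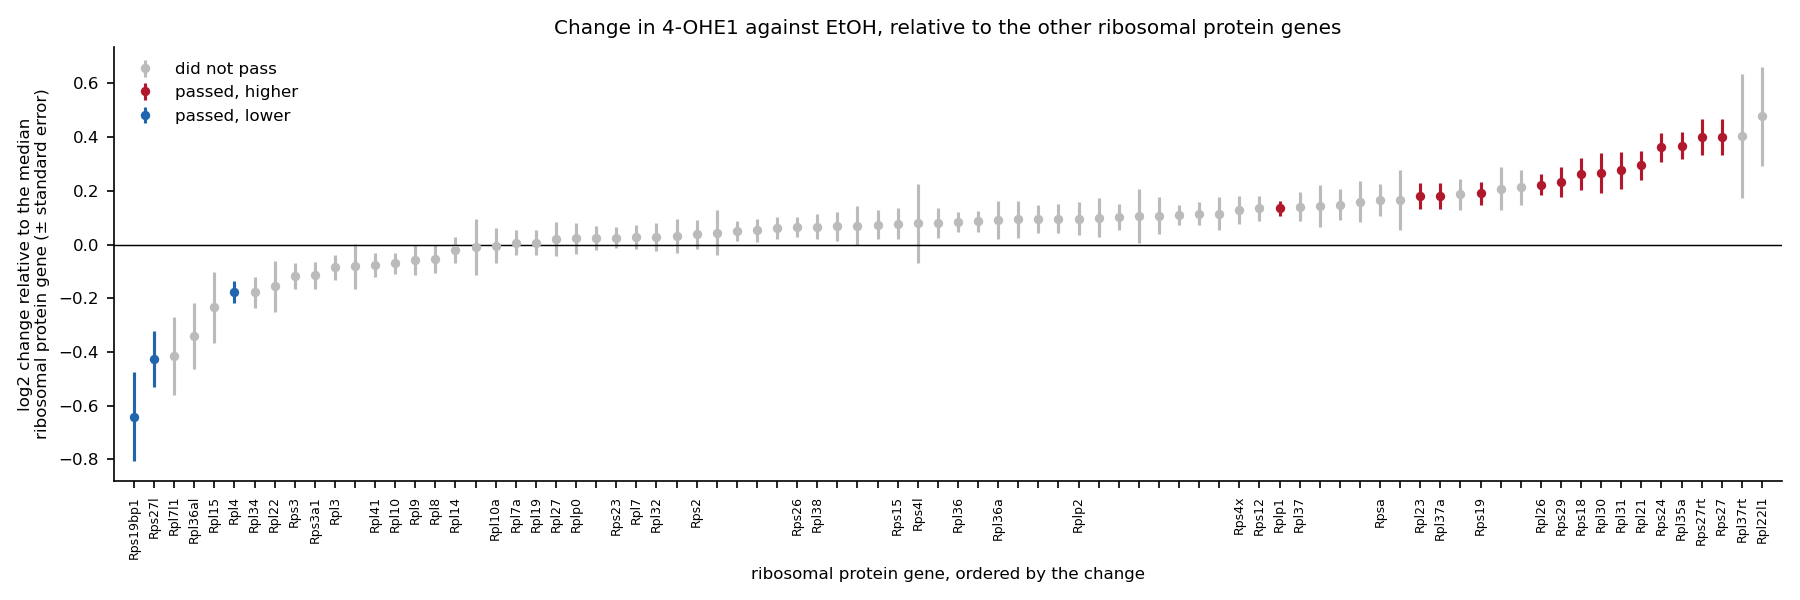
Log2 change in 4-OHE1 against EtOH of 82 tested genes relative to the median ribosomal protein gene of its library (y axis; bars are the standard error of the limma fit, 2 libraries a group), ordered along the x axis, where those named in the text are labelled. Red genes passed as higher (14 drawn), blue ones as lower (3), and the highest, Rpl22l1, has a wide error and did not pass.

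The 3 lower ones were Rps19bp1 (relative log2 change -0.64, adjusted p = 0.032), Rps27l (-0.43, adjusted p = 0.0265) and Rpl4, a large-subunit protein that lines the exit tunnel of the nascent chain (-0.18, adjusted p = 0.0242). Rpl4 stood at 657 and 709 RPKM in EtOH, 646 and 602 in E2, with 458 and 432 in 4-OHE1. Rpl22l1 had the highest relative change of all, 0.48, and did not pass. Of the 19 genes, Rpl35a and Rps24 kept their departure under every alternative tried on it. The count was 2 without EtOH replicate 1 and 5 without EtOH replicate 2, all higher in both cases.

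The third comparison set the estrogens against each other at the same dose and time. 4-Hydroxyestrone differs from estradiol by an added hydroxyl group on the aromatic ring, which makes it a catechol, and by a ketone in place of the hydroxyl group on the D ring. Levels of the set were lower in 4-OHE1: 77 of 85 genes stood below E2 relative to exon reads, with a median log2 change of -0.15, against -0.02 for all genes, and under the authors' scaling the medians were -0.41 and -0.25. Of the 85, 0 rose and 21 fell under both scalings in limma, 24.7% of the members beside 7.14% of all genes lower and 2.5% higher. Among the 886 other genes of like level the median was also -0.15, and 23.3% of them fell, a share near that of the members. At an unadjusted p under 0.05 in both scalings 0 stood higher and 41 lower, 48.2% of the members beside 16.3% of all genes and 39.7% of those of like level lower. The authors' scaling alone gave 74 lower, beside 19.7% of all genes and 518 of the 886 of like level. Exon reads alone gave 21 lower and 0 higher, beside 7.14% and 5.54% of all genes. The count tests gave 17 of 84 lower in edgeR and 23 lower in DESeq2, beside 7.82% and 6.89% of all genes. They gave 0 higher in either, beside 6.54% and 6.19%. Of the 886 other genes of like level, edgeR called 258 lower and 82 higher, and DESeq2 261 and 92. The members' falls in the count tests thus did not exceed those of genes at their level.

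Large-subunit genes made up 14 of the 21 and small-subunit genes 6, besides Rps19bp1, which had the largest change (-0.84, SE 0.17, adjusted p = 0.0272). Rpl36al, the intronless paralog of Rpl36a, fell from 121 and 122 RPKM in E2 to 56.2 and 67.7 in 4-OHE1 (log2 change -0.70, SE 0.12, adjusted p = 0.0167), with 101 and 113 in EtOH. Rpl34, of the large subunit, fell from 644 and 595 RPKM to 427 and 365 (-0.38, SE 0.07, adjusted p = 0.020), with 593 and 617 in EtOH. In each of these the 4-OHE1 libraries lay below all 4 others. Rps27l fell by 0.38 on the log2 scale (adjusted p = 0.0452). Rps3a1, of the small subunit, fell from 465 and 459 RPKM to 313 and 302 (-0.32, SE 0.05, adjusted p = 0.0128). Rpl10, which joins the large subunit late and completes its peptidyl transferase centre, fell from 1023 and 928 RPKM to 688 and 644 (-0.29, SE 0.04, adjusted p = 0.0134). The other 15 fell by smaller or similar amounts.

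Among those 15, Rpl27 (-0.31), Rpl41, the shortest ribosomal protein (-0.30), Rpl8, Rpl9, Rps23 and Rps2 (all -0.26) and Rpl14 (-0.25) lay closest to Rpl10. Rpl19, Rpl4, Rpl3, Rpl36, Rps26, Rpl7a and Rpl38 lay between -0.23 and -0.20. For all 21 both 4-OHE1 libraries lay below both E2 libraries relative to exon reads, as they did for 57 of the 89 members, beside 27.1% of all genes, with 2 members above, beside 25.7%. For some members the estrogens gave values close to each other. Rps27 differed by 0.02 (95% confidence interval -0.14 to 0.18), Rpl31 by 0.01 (-0.17 to 0.19), Rps24 by 0.04 (-0.10 to 0.18), Rpl30 by 0.06 (-0.12 to 0.23), Rpl21 by 0.06 (-0.07 to 0.19), Rpl22l1 by 0.10 (-0.32 to 0.52) and Rpl35a by 0.12 (-0.02 to 0.25), relative to exon reads. None of these passed, and the intervals do not show that the compounds act alike. Rps4l, at 18.5 and 16.9 RPKM in E2 and 11.0 and 8.74 in 4-OHE1, did not pass (log2 change -0.56, adjusted p = 0.0704).

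**Figure D4:**
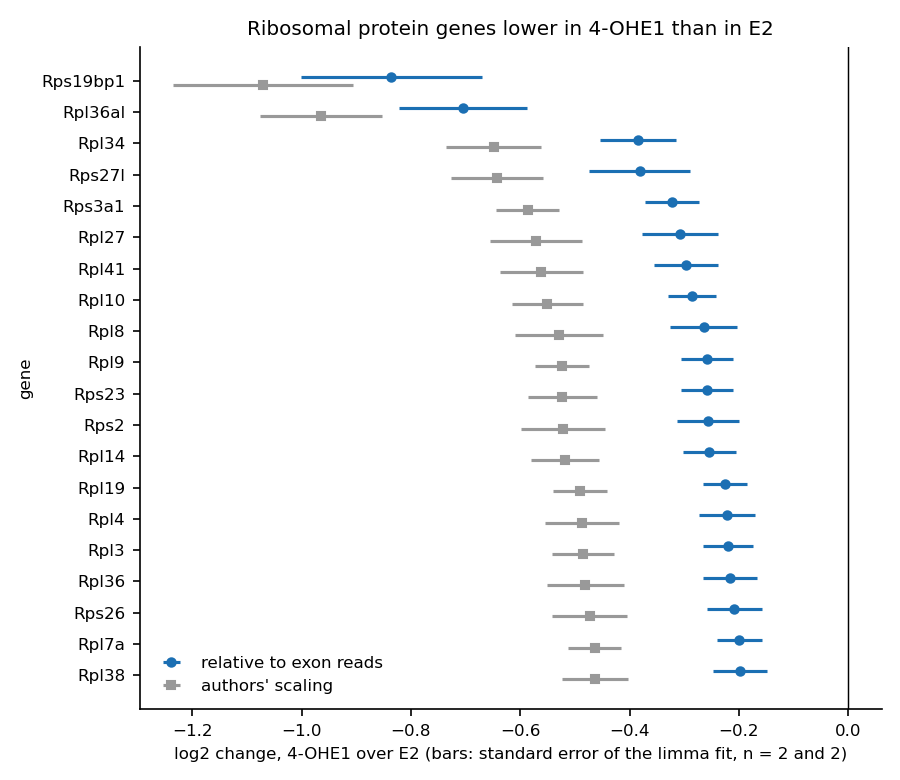
Log2 change of 4-OHE1 over E2 (x axis) for 20 of the 21 ribosomal protein genes that fell under both scalings (y axis), relative to exon reads in blue and with the authors' scaling in grey; bars are standard errors, 2 libraries a group. All blue points lie between -0.84 and -0.20. Each grey point lies further from 0, because the authors' scaling lowers the changes of this comparison.

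Set against the median member of the library, 4 genes stood higher in 4-OHE1 than in E2, beside 14.1% of all genes. In the other direction 2 stood lower, beside 4.13%. The 79 members that did not pass had a median relative log2 change of 0.04. The higher ones were Rpl35a (relative log2 change 0.30, adjusted p = 0.0133), Rpl21 (0.24), Rps24 (0.22) and Rplp1 (0.14), all of which also departed upward against EtOH, a comparison that shares the 4-OHE1 libraries. The lower ones were Rps19bp1 (-0.62) and Rpl36al (-0.52, adjusted p = 0.034). The 21 falls shrank to 1, 0, 0 and 1 without EtOH replicate 1, EtOH replicate 2, E2 replicate 1 or E2 replicate 2, to 0 with no filter on low levels and to 1 with only the 4 libraries of the comparison. The 6 departures became 0, 0, 0 and 1 without the same libraries, and 12 and 14 without 4-OHE1 replicate 1 or 2.

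Several ribosomal proteins have a paralog, and its level as a percentage of its namesake in the same library does not depend on the scaling. With 2 libraries a group no exact test of such a ratio could pass, so the values are given as they are. Rpl22l1, whose mRNA is repressed by Rpl22 in mice, stood at 54.6% and 51.9% of Rpl22 in EtOH, 55.7% and 71.0% in E2, then 78.7% and 87.5% in 4-OHE1. The RPKM of Rpl22l1 itself was 70.1 and 70.0 in EtOH, 70.1 and 92.4 in E2, with 64.9 and 79.8 in 4-OHE1. That of Rpl22 was 128 and 135, 126 and 130.1, and 82.5 and 91.2, in the same order of groups. Which gene of the pair differs depends on the scaling: relative to exon reads the mean of Rpl22l1 was 70.1 RPKM in EtOH and 99.7 in 4-OHE1, and that of Rpl22 131.6 and 119.6. The ratio of Rps27l was ordered the other way, at 9.51% and 8.49% of Rps27 in EtOH, 6.28% and 7.01% in E2, then 4.98% and 5.07% in 4-OHE1. Rpl36al was 27.8% and 29.4% of Rpl36a in EtOH, 26.6% and 32.2% in E2, with 18.2% and 24.4% in 4-OHE1. Only in that pair did E2 overlap EtOH among these 3. Rpl7l1 was 5.24% and 5.62% of Rpl7 in EtOH, 4.49% and 3.94% in E2, then 3.39% and 4.49% in 4-OHE1, with both estrogens below EtOH.

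**Figure D5:**
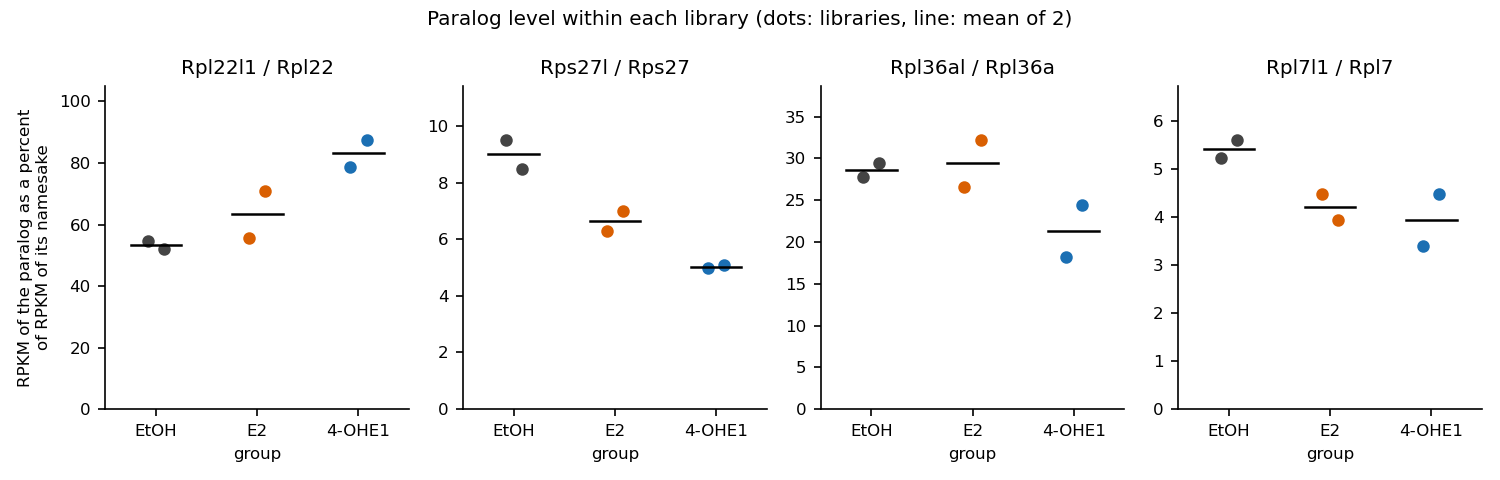
RPKM of 4 paralogs as a percentage of the RPKM of their namesake in the same library (y axis, from 0) by group (x axis); dots are libraries and lines the mean of 2. Rpl22l1 over Rpl22 is highest in 4-OHE1, whereas Rps27l over Rps27, Rpl36al over Rpl36a and Rpl7l1 over Rpl7 have their lowest mean there.

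The copies of lower level, Rps4l and Rpl37rt, gave no such order. Rps4l was 1.51% and 1.81% of Rps4x in EtOH, 2.21% and 2.33% in E2, with 1.75% and 1.39% in 4-OHE1, so E2 alone stood above EtOH. Rpl37rt was 1.32% and 1.64% of Rpl37 in EtOH, 1.93% and 1.99% in E2, then 1.35% and 2.29% in 4-OHE1, where the libraries overlap those of both other groups. Rps19bp1 is no copy of Rps19, but its protein binds that of Rps19. Its level relative to Rps19 was 4.07% and 4.49% in EtOH, 4.15% and 3.90% in E2, with 1.94% and 2.66% in 4-OHE1. Both 4-OHE1 libraries lay below all others, and E2 overlapped EtOH.

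What the departing genes share beyond their name was described without a test. Of 68 members with an entry in the RefSeq promoter table, a run of at least 5 pyrimidines (C or T, read on the strand of the gene) covered the annotated start in 22, or 32.4%, against 11.8% of all 27025 genes in that table. Among the 15 genes that stood higher in 4-OHE1 relative to the other members, Rps27rt left out, 9 had an entry and 5 of these had such a run (Rpl31, Rpl35a, Rps18, Rps24 and Rps27). The lower 3, Rpl4, Rps19bp1 and Rps27l, had none at the start, and of the 21 that fell against E2, 17 had an entry and 4 a run (Rpl14, Rpl34, Rpl38 and Rpl7a). A match in these letters is not a measured tract, and annotated starts may lie a few bases from the used ones. Small nucleolar RNAs, which guide the modification of ribosomal RNA, lie within 30 of the 86 members that could be searched, on the same strand (GENCODE, GRCm38). These hosts had median log2 changes of 0.24, 0.11 and -0.15 in the 3 comparisons and the other members 0.25, 0.10 and -0.14. Across the 85 genes the change relative to the other members had a Spearman correlation with exon length of -0.31 in E2 against EtOH, -0.24 in 4-OHE1 against EtOH and -0.11 in 4-OHE1 against E2. With the GC content of the transcript, over 84 genes, it was -0.06, -0.12 and -0.11. These genes share the libraries and are not independent replicates.

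Other genes of ribosome production give the setting of these changes. Fau, which encodes a small-subunit protein fused to a ubiquitin-like part, lies outside the symbol rule. It stood at 841 and 855 RPKM in EtOH, 913 and 832 in E2, then 719 and 646 in 4-OHE1. It passed in no comparison in limma or edgeR, whereas DESeq2 called it higher in E2. Its log2 changes of 0.23 in E2 and 0.14 in 4-OHE1 against EtOH lie within the range of the members. The 77 proteins of the mitochondrial ribosome, which translates the mRNAs of mitochondrial DNA, had a median log2 change of -0.07 in E2 against EtOH, where limma passed 0. At an unadjusted p under 0.05 in both scalings 1 stood higher and 3 lower, and edgeR and DESeq2 each called 1 higher. In 4-OHE1 15 fell against EtOH, with a median of -0.31, and 10 fell against E2, with a median of -0.29. These are 19.5% and 13.0% of the list, beside 13.9% and 7.14% of all genes. Of 3266 genes outside the set with exon lengths like those of its members (383 to 1866 bases), 19.7% and 12.3% fell. The shares of the list lie near these. In both, 0 rose in limma, 0 stood higher at an unadjusted p under 0.05 in both scalings, and edgeR and DESeq2 called 0 higher. Mrpl34 went from 37.5 and 37.9 RPKM in EtOH to 21.0 and 26.2 in E2 and 14.2 and 12.8 in 4-OHE1 (log2 change against EtOH -0.99, adjusted p = 0.0051), and Mrpl4 from 35.2 and 32.5 to 28.5 and 26.6 and 13.3 and 12.5 (-0.89, adjusted p = 0.0023). Mrpl53 (-1.16) and Mrpl15 (-1.15) had larger changes against EtOH.

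Of the 44 tested genes of ribosome assembly, limma passed 0 in E2 against EtOH, with a median of 0.09. At an unadjusted p under 0.05 in both scalings 0 passed, and edgeR called 0 and DESeq2 2. In 4-OHE1 10 fell against EtOH (median -0.33) and 8 against E2 (median -0.30). These are 22.7% and 18.2% of the list, beside 13.9% and 7.14% of all genes. In limma 0 rose in 4-OHE1 against either group, also at an unadjusted p in both scalings. Against EtOH edgeR called 1 and DESeq2 2 higher, and both called 0 higher against E2. Those lowest against EtOH were Dkc1, the pseudouridine synthase of ribosomal RNA (-1.11), Mrto4, which helps to build the stalk (-0.80), Polr1b, a subunit of RNA polymerase I (-0.77), and Eif6, which keeps the subunits apart until the large one is mature (-0.67). Bop1, a processing factor of the large subunit, was among those that fell against E2 (-0.82). The 19 tested mRNAs that carry an oligopyrimidine tract but encode no ribosomal protein had medians of 0.06 in E2 and -0.15 in 4-OHE1 against EtOH and -0.20 between the estrogens. Of these 1 fell in E2, Vim, the intermediate filament vimentin, at 1548 and 1580 RPKM in EtOH, 860 and 807 in E2, with 487 and 508 in 4-OHE1 (log2 changes -0.71 and -1.19 against EtOH). In 4-OHE1 8 fell against EtOH, among them the translation elongation factor Eef1g (-0.69), the chaperonin subunit Cct4 (-0.67) and the nucleolar chaperone Npm1 (-0.40), and 7 fell against E2. These are 42.1% and 36.8% of the list, whereas 35.8% and 23.3% of the genes at the members' level fell. In all 3 comparisons 0 rose in limma, also at an unadjusted p in both scalings, and edgeR called 0 higher and DESeq2 1, in E2.

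Among 23 tested regulators of ribosomal protein synthesis, Ddit4, an inhibitor of mTORC1, rose from 33.0 and 30.0 RPKM in EtOH to 183 and 165 in E2 and 246 and 246 in 4-OHE1 (log2 changes 2.62 and 3.38 against EtOH). It was the only one called in E2 against EtOH (1 rose, 0 fell, median 0.09). At an unadjusted p in both scalings 3 stood higher and 1 lower, and edgeR and DESeq2 each called 2 higher and 1 lower. In 4-OHE1 against EtOH 4 rose and 1 fell, 17.4% and 4.35% of the list beside 5.74% and 13.9% of all genes, whereas edgeR called 10 and DESeq2 9 higher. The median was 0.45 relative to exon reads and -0.0048 with the authors' scaling, where 11 of 23 stood above 0. Besides Ddit4 those that rose were Rictor, a subunit of mTORC2 (1.21), Tsc1, of the complex that restrains mTORC1 (1.14), and Sesn2, which restrains mTORC1 when amino acids are short (1.10), the last 3 from levels of 1.18 to 3.0 RPKM in EtOH. Against E2 1 rose, Ddit4 (0.77), and 1 fell, Eif4e, the factor that binds the cap of mRNAs (-0.90, from 8.53 and 9.25 RPKM to 4.30 and 3.04).

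The median coefficient of variation between the replicates of a member was 3.32% for EtOH, 5.18% for E2 and 5.79% for 4-OHE1, against 2.18%, 5.70% and 6.26% for 1062 other genes of at least 50 RPKM. Over the libraries of a group the median member had 12555 reads in EtOH, 3330 in E2 and 2761 in 4-OHE1. Counting error is thus small for most members, and it bears on Rpl37rt, Rps4l and Rps19bp1, whose lowest library held 29 to 62 reads.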

How the data were processed

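Reads were mapped to the mouse build mm9, and STAR, HOMER, DESeq2 and edgeR are named without versions in the submitters' processing notes. HOMER gave the exon reads of a single isoform for each RefSeq gene, per the file headers of the authors. The deposited table of RPKM holds exon reads divided by exon length and by all tags of each library. A deposited edgeR table for each estrogen against the vehicle holds signal columns of reads that the authors scaled to a common total, with log2 fold changes, p-values and adjusted p-values. Dividing each signal column by its step gave whole reads for 100.0% of values above 0 (within 0.05). These reads were tested with edgeR 4.0.16, which for 12176 genes called 551 higher and 368 lower in E2 against EtOH, 1705 and 1818 in 4-OHE1 against EtOH, and 796 and 952 in 4-OHE1 against E2, and with DESeq2 1.42.0, which called 660 and 417 of 11232, then 1721 and 1630, and 861 and 958, of 13905. Of the 24421 genes, 266 whose transcript differs between the edgeR tables were left out of the read tests, and 10 members are measured on different transcripts in the RPKM and edgeR tables.

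edgeR had been planned for raw counts. The deposited values are scaled, so limma-trend (limma 3.58.1, R 4.3.3) was kept as the main test. It was run on log2(RPKM + 1) for the 10950 genes with a mean of at least 1 RPKM. edgeR and DESeq2 on the recovered reads served as alternatives. All 6 libraries entered a fit of group means, two-sided, with Benjamini-Hochberg adjustment over all genes tested. The fit was made with the authors' scaling and with RPKM rescaled to exon reads, and another fit subtracted each library's median over the tested members. Confidence intervals come from the limma fit. The tests were also run on simulated data, with planted changes larger than most of those of the members. That run does not bear on small changes, and no result here rests on it. Genes of like level had a mean between the 5th and 95th percentile of the tested members. Promoter sequence is from RefSeq (GRCm38.p6), and where a gene has several starts the entry with the longest run over the start was used.

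Named are the members of highest level, of largest change in each direction, those called or departing, the paralogs with their namesakes and the stalk; of other lists, the 4 largest changes that passed. The members, the lists and this rule were chosen with earlier results of these data known. Alternatives changed the scaling, pseudocount, filter, libraries, replicate block and tool. Counting Rps27rt as no member was added after seeing the data. A few genes are not reported here, in the text or in the plots by gene, and they remain in all fits and counts.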

Additional observations from a re-analysis of the deposited data

How the results depend on the processing

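Between alternatives the counts of called members moved more than their medians. The median log2 change of the members was 0.24 in E2 against EtOH, 0.10 in 4-OHE1 against EtOH and -0.15 in 4-OHE1 against E2. With the authors' scaling alone it was 0.0487, -0.356 and -0.407. Leaving out each library in turn gave 0.228 to 0.274, 0.0583 to 0.134 and -0.175 to -0.115.

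For members higher in E2 against EtOH the count of 0 became 31 relative to exon reads alone, 34 in edgeR with TMM, 35 in edgeR with exon-read totals and 59 in DESeq2. For members higher in 4-OHE1 against EtOH the count of 0 became 18, 12, 18 and 20 under the same settings. The 2 lower there became 69 with the authors' scaling alone, 0 with no filter and 1 with only the 4 libraries of the comparison. The count was 1 in edgeR with exon-read totals. DESeq2 also called 1 lower, which was neither of the 2 that limma called. The 21 lower in 4-OHE1 against E2 became 74 with the authors' scaling alone, 0 with no filter, 1 with only the 4 libraries of the comparison, and 0 to 27 when a library was left out. Departures from the other members numbered 0, 19 and 6 in the 3 comparisons. When a library was left out they ranged from 0 to 4, from 2 to 28 and from 0 to 14, and with no filter those of 4-OHE1 against E2 were 13. The cause of these shifts was not tested. A group with a library left out has 1 library, assumed to vary like the other groups. For 4-OHE1 against E2 the EtOH libraries enter only the estimate of the spread. The members' median change there stayed at -0.15 without EtOH replicate 1, without EtOH replicate 2 and with only the 4 libraries of the comparison. Replicates of a member differed least for EtOH, by a median coefficient of variation of 3.32%, beside 5.18% (E2) and 5.79% (4-OHE1). Of 23 calls 0 passed under every alternative, and of 25 departures 2 did. Without Rps27rt no other call changed.

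The labels number the libraries of each group 1 and 2 and do not say that a number marks a shared animal or day. Libraries of the same number deviated together weakly, with correlations of 0.113 between EtOH and E2, 0.0478 between EtOH and 4-OHE1 and 0.149 between E2 and 4-OHE1. With the replicate number as a block, 0 members rose and 0 fell in E2 against EtOH, 0 rose and 3 fell in 4-OHE1 against EtOH, and 0 rose and 14 fell in 4-OHE1 against E2, with 0, 18 and 5 departures.

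The depth of the E2 and 4-OHE1 libraries limits the members of low level, and with 2 libraries a group the design limits every count.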
